A study of Rattus norvegicus with 44 samples.

Results

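The cytosolic ribosomal proteins of rat liver were followed across 4 dosing studies of compounds known only as R1 and R2. Members were the array's probe sets whose single annotated gene symbol begins with Rpl or Rps and a digit, or is Rplp0, Rplp1, Rplp2 or Rpsa, leaving out the S6 kinases (Rps6k genes). The rule gave 63 of 8740 probe sets, for 43 of 4736 named genes. Of these, 61 probe sets for 42 genes were bright enough to be tested. The remaining 2 both belonged to the pseudogene Rps2-ps1. The tested members comprised 37 probe sets for large subunit proteins, 17 for small subunit proteins, 1 for the stalk protein Rplp0, and 6 under paralog, pseudogene or other names. A further 40 probe sets carried several symbols that included a ribosomal protein and were not used. Ribosomal protein genes have many near-identical copies and pseudogenes, so each name is uncertain as to the copy.

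The animals were male Wistar rats of 8 weeks, dosed by gavage once a day with a compound or with its vehicle, a citric acid buffer. RNA came from the left lateral liver lobe, taken 24 h after the last dose, and each array held 1 sample. In study 1 (24 h) the groups were vehicle (3 arrays) and R1 at 10 (4 arrays), 30 (3) and 100 mg/kg/day (3). In study 2 (336 h) they were vehicle (4 arrays) and R1 at 20 (5) and 100 mg/kg/day (4). Study 3 (336 h) compared vehicle (5 arrays) with R1 at 30 mg/kg/day (4), and study 4 (24 h) compared vehicle (4 arrays) with R2 at 300 mg/kg/day (5). The labels give replicate numbers and not which animal each array came from, so the p-values speak of the spread between arrays. R1 and R2 were given at different doses in different studies and are not compared here.

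Each ribosome joins a small subunit, which reads the messenger RNA, to a large subunit, which forms the peptide bond. Their proteins are needed in equal numbers, and the messenger RNAs for them commonly begin with a run of pyrimidines, the terminal oligopyrimidine or TOP tract, through which mTOR signalling controls their translation. The liver makes much plasma protein and holds abundant ribosomes.

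The start-site sequences are shown because many members hold a run of pyrimidines near the annotated start and others do not. Windows run from 40 bases before to 15 bases after the annotated start in the RefSeq table, build GRCr8, and the longest run of at least 7 C or T letters lying within 20 bases before to 15 after the start is in capitals. Rpl35, Rpl31, Rpl23 and Rpl13a are printed because results below turn on them, Rplp0 as the stalk gene, and Rpl3l, a paralog of Rpl3 known from muscle, as a member with no such run. Rplp0 lies at chr12:46718376-46718430 (minus strand), Rpl35 at chr3:43165907-43165961 (minus), Rpl31 at chr9:49143071-49143125 (plus), Rpl23 at chr10:83272170-83272224 (minus), Rpl13a at chr1:104748899-104748953 (minus) and Rpl3l at chr10:14258406-14258460 (plus).
Rplp0: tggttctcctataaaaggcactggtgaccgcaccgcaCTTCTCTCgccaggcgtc
Rpl35: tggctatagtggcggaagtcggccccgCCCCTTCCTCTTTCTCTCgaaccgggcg
Rpl31: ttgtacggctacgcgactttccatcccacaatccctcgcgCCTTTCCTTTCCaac
Rpl23: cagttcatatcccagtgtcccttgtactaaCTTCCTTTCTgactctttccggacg
Rpl13a: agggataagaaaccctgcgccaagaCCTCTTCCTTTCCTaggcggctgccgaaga
Rpl3l: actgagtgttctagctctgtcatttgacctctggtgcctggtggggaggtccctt

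Of the 43 member genes, 36 had an entry in the table. A run of at least 7 pyrimidines was present in 26 of these 36 (72.2%), against 21.2% of all 33469 promoters in the same window. On the other strand, members held such a run in 8.33% and all promoters in 22.8%. The letters CTTTC occurred in 44.4% of members and 4.34% of all promoters on the coding strand, and in 2.78% and 4.38% on the other strand. The 2 patterns can overlap. The window, the run length and the letters were chosen after the members' promoters had been read, so these shares are a description. The annotated start is that of 1 transcript per gene and can differ from the start used in liver. The marked runs of Rpl23 and Rpl13a end before the annotated start. Whether the marked runs are TOP tracts was not tested.

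Signal here is the deposited intensity, which is relative within an array, and probe sets are not ranked by it for transcript amount. Arrays of a group correlated between 0.924 and 0.974. Every array showed liver identity, with albumin (Alb) at 8854 to 12597 and apolipoprotein A1 (Apoa1) at 3862 to 8854. The median residual SD around group means was 0.26 on the log2 scale for members and 0.42 for all tested probe sets. Members were mostly bright, with 49 of 63 above percentile 90 of mean signal. No comparison at equal brightness was made. Rpl36, a large subunit protein, was steadiest (0.13). Rpl3l was the most variable (0.65 and 0.57 for its probe sets, with mean signals of 6.87 and 17.4). Within groups the genes moved together weakly. The median correlation was 0.07 between pairs of member genes and -0.0005 between pairs of other tested probe sets. Of the member pairs 58.7% were above 0, against 49.9% of the others. These values are a description over 44 arrays that share the same scaling.

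The mean log2(signal + 2.89) of the 42 tested genes, called the score below, gives 1 level per array. In study 1 the 3 vehicle arrays had scores of 9.43 to 9.51. Arrays at 10 mg/kg/day of R1 had 9.25 to 9.39, at 30 9.24 to 9.35 and at 100 9.19 to 9.25. All 10 R1 arrays thus lay below the 3 vehicle arrays, and the 100 mg/kg/day group lay at the low end. In study 2 the vehicle arrays had 9.45 to 9.67, those at 20 mg/kg/day 9.47 to 9.68 and those at 100 9.61 to 9.81, so the groups overlapped. Study 3 had 9.23 to 9.52 with vehicle and 9.29 to 9.45 with R1, and study 4 had 9.30 to 9.44 with vehicle and 9.26 to 9.39 with R2. The pooled SD within groups was 0.08. The vehicle groups of studies 2 and 3 had mean scores of 9.56 and 9.35, a gap of the same order as those between doses and vehicle.

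**Figure D1:**
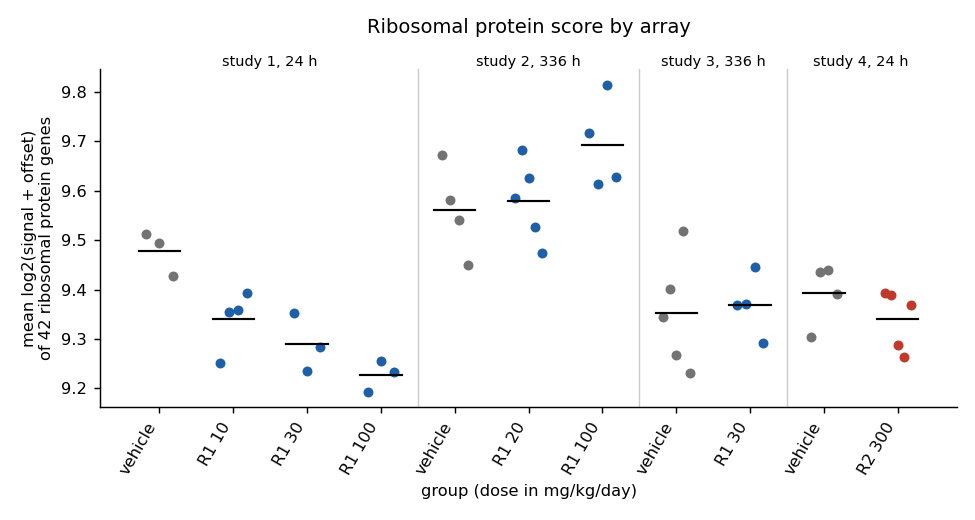
Each point is 1 array, the vertical axis is the mean log2(signal + offset) of 42 ribosomal protein genes, and black bars are group means; gray is vehicle, blue R1 and red R2. In study 1 every R1 array is below the vehicle arrays, in study 2 the groups overlap, and vehicle groups differ between studies.

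At 24 h, most member fold changes with R1 were below 0, and few members passed the test. Values from here on are log2 fold changes ± SE on the log2(signal + 2.89) scale, and "called" means an adjusted p under 0.05 in limma. At 10 mg/kg/day none of the 61 members was called, against 1.24% of all tested probe sets; 11 members (18%) had an unadjusted p under 0.05, as did 9.79% of all tested. The median member change was -0.12, against -0.02 for all tested, and 40 of 61 were below 0. The members nearest the threshold were Rps3a (-0.38 ± 0.14, adjusted p = 0.302), Rpl11 (0.57 ± 0.22, adjusted p = 0.314) and Rpl21 (-0.60 ± 0.25, adjusted p = 0.404).

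At 30 mg/kg/day 1 of 61 members was called, where 1.73% of all tested probe sets were. The median was -0.19, against -0.03 for all tested, and 41 members were below 0. The median became -0.12, -0.13 and -0.10 without vehicle array 1, R1 array 2 and R1 array 3. The call was a probe set annotated as Rpl19l4. The name rests on the annotation of the array alone and is uncertain. Whether this probe set measures a ribosomal protein gene was not checked. Its signal was 217, 142 and 151 with vehicle and 115, 28.7 and 69.0 at 30 mg/kg/day. The groups did not overlap, and its change was -1.40 ± 0.35 (adjusted p = 0.0194). The call ended without vehicle array 1 or R1 array 2 (adjusted p up to 0.327), with study 1 fitted alone and with a replicate block (adjusted p up to 0.0946).

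The highest R1 dose at 24 h, 100 mg/kg/day, gave 2 calls among 61 members, both lower, where 6.4% of all tested probe sets were called. The median was -0.22 against -0.04, and 47 members were below 0, among them 29 of 37 large subunit and 13 of 17 small subunit probe sets. Rpl35, a large subunit protein at the exit of the peptide tunnel, had signals of 2303, 2122 and 2009 with vehicle on its probe set M34331_g_at. The signals were 1781, 2059, 1834 and 1775 at 10 mg/kg/day, 1857, 1623 and 1628 at 30, and 1051, 1587 and 1517 at 100. The 100 mg/kg/day arrays lay below every vehicle array, and the change of -0.65 ± 0.19 passed the test (adjusted p = 0.0244). The other Rpl35 probe set, M34331_at, had -0.59 ± 0.20 (adjusted p = 0.0634). The Rpl35 call ended without vehicle array 1 or 2 or R1 array 1 (adjusted p up to 0.251).

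Rpl19l4 had signals of 109, 52.5 and 66.5 at 100 mg/kg/day of R1, again below all vehicle arrays of study 1 (-1.17 ± 0.35, adjusted p = 0.0307). Without vehicle array 1 or 3 or R1 array 2 or 3 the adjusted p rose to as much as 0.188, and the call also ended with the study fitted alone and with a replicate block. Directly against 10 mg/kg/day, none of the 61 members was called at 100 (limma), where 3.98% of all tested probe sets were; 7 (11.5%) had an unadjusted p under 0.05, against 15.8% of all tested, and the median was -0.17, or -0.12 without R1 array 1 of the 100 mg/kg/day group. Rpl35 (M34331_at) came nearest, at -0.60 ± 0.18 (adjusted p = 0.0532). The 3 doses share 1 vehicle group, so the shifts below vehicle are not separate observations. A sign of RNA integrity is the log2 ratio of 3′ to 5′ control probe sets. In study 1 it was 1.10 to 1.78 for beta-actin in the vehicle arrays and 0.54 to 1.24 in the R1 arrays. For GAPDH it was 0.41 to 0.81 and -0.25 to 0.83, and for hexokinase 1.94 to 2.49 and -1.19 to 3.74. At 100 mg/kg/day the hexokinase ratio was 2.87 to 3.01, above the vehicle arrays. The part of RNA integrity in the shift was not tested.

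After 336 h most members lay above vehicle at 100 mg/kg/day of R1. At 20 mg/kg/day none of the 61 members was called in limma, where 4.43% of all tested probe sets were, and 1 (1.64%) had an unadjusted p under 0.05, against 14.9% of all tested. The median was 0.03, and 32 members were above 0. The probe set annotated as Rps27l, a paralog of the small subunit gene Rps27, came nearest (-0.41 ± 0.18, adjusted p = 0.231). Which of the 2 genes it measures was not checked. At 100 mg/kg/day 2 of 61 were called, both higher, where 10.3% of all tested probe sets were called. The median was 0.17 against -0.02, and 49 members were above 0: 31 of 37 in the large and 15 of 17 in the small subunit. Directly against 20 mg/kg/day none was called at 100 (limma), where 4.07% of all tested were. There, 6 (9.84%) had an unadjusted p under 0.05, against 12.8% of all tested, and 50 of 61 members were above 0.

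Rpl31, another large subunit protein near the tunnel exit, had signals of 1826, 1793, 1576 and 1300 with vehicle in study 2. At 20 mg/kg/day of R1 it had 2029, 2122, 2186, 1684 and 1671, and at 100 it had 2584, 1949, 2584 and 2221. The 100 mg/kg/day arrays lay above every vehicle array, a change of 0.53 ± 0.17 (adjusted p = 0.0308). The call ended without vehicle array 3 or 4 or R1 array 1 or 3 (adjusted p up to 0.15), and without a mean-variance trend (adjusted p = 0.0531).

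Rpl23, a large subunit protein at the face that meets the small subunit, had signals of 1469, 1268, 1113 and 1159 with vehicle on its probe set X58200mRNA_g_at. It had 1891, 1576, 1976 and 2134 at 100 mg/kg/day of R1, with no overlap (0.60 ± 0.20, adjusted p = 0.0471). Leaving out vehicle array 2, 3 or 4 or R1 array 1, 3 or 4 ended the call (adjusted p up to 0.13), as did no trend, no filter on dim probe sets, and 1 probe set per gene. Its other probe set, X58200mRNA_at, had 886, 856, 680 and 718 with vehicle and 944, 768, 816 and 879 with R1. Those groups overlapped and the change was 0.12 ± 0.15 (adjusted p = 0.751).

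Markers of other cells also differed between these study 2 groups. The leukocyte score (5 tested genes, including Ptprc and Cd74) was 5.29 to 5.49 with vehicle and 4.20 to 4.75 at 100 mg/kg/day, with 0 of 5 genes above 0 and 2 called lower. The macrophage score (4 genes) was 7.84 to 8.66 and 7.39 to 7.92, with 2 genes called lower and 1 called higher. The bile duct score (4 genes) was 4.94 to 5.64 and 5.55 to 6.25, with 2 called higher. The stellate cell and fibroblast score (5 genes) was 6.25 to 6.71 and 5.33 to 6.42, with none called. The endothelial score (3 genes) was 3.95 to 4.69 and 3.45 to 4.18, with 1 called lower. Of 5 hepatocyte genes, 1 was called higher. Their part in the ribosomal protein shift was not tested. In bulk liver, a different make-up of cells and a different amount of RNA per cell cannot be told apart. The beta-actin 3′ to 5′ log2 ratio was 1.01 to 1.61 with vehicle and 0.62 to 1.21 at 100 mg/kg/day. Those of GAPDH (0.07 to 0.395 and -0.03 to 0.39) and hexokinase (-1.33 to 2.74 and -1.34 to 2.04) also overlapped. The part of these ratios was not tested either.

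In study 3, 30 mg/kg/day of R1 for 336 h gave 3 calls among 61 members, where 11.3% of all tested probe sets were called. The median was 0.07 and 39 members were above 0. It was 0.03 without R1 array 3 or vehicle array 5 and 0.11 without vehicle array 4. Rpl13a, a large subunit protein also known for silencing inflammatory messages, had 193, 262, 143, 203 and 178 with vehicle on its probe set rc_AA891713_at. With R1 it had 239, 330, 428 and 301, overlapping at 1 array (0.71 ± 0.21, adjusted p = 0.0163). Rpl23 (X58200mRNA_g_at) had 940, 1329, 1032, 1173 and 804 with vehicle and 1329, 1517, 2109 and 1344 with R1. The lowest R1 array equalled the highest vehicle array (0.57 ± 0.19, adjusted p = 0.0412). Its other probe set had -0.13 ± 0.14 (adjusted p = 0.705).

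Rpl19l4 was lower in study 3, with signals of 82.8, 65.4, 37.1, 88.4 and 56.4 with vehicle and 37.7, 36.1, 24.6 and 25.5 with R1 (-0.99 ± 0.29, adjusted p = 0.0166). The groups overlapped at 1 array. Single arrays ended all 3 calls of study 3. For Rpl13a these were R1 array 3 and vehicle array 3 (adjusted p up to 0.119), and for Rpl23 R1 arrays 2 and 3 and vehicle arrays 1, 3 and 5 (adjusted p up to 0.252). For Rpl19l4 they were R1 arrays 3 and 4 and vehicle arrays 1 and 4 (adjusted p up to 0.0751). In study 2, Rpl19l4 had 86.7 to 105 with vehicle and 59.7 to 119 at 100 mg/kg/day, a change of -0.02 ± 0.30 (adjusted p = 0.984).

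Cell markers differed between the study 3 groups as well. The bile duct score was 4.59 to 5.71 with vehicle and 5.64 to 5.86 with R1, with 2 of 4 genes called higher. The stellate cell and fibroblast score was 5.13 to 6.39 and 4.76 to 5.26, with 2 of 5 genes called lower, and the red cell score (3 genes) was 7.76 to 8.52 and 6.66 to 7.49, with 2 of 3 called lower. The leukocyte score was 4.38 to 5.22 and 3.98 to 4.79, with 1 of 5 called lower. Their part in these values was not tested.

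**Figure D2:**
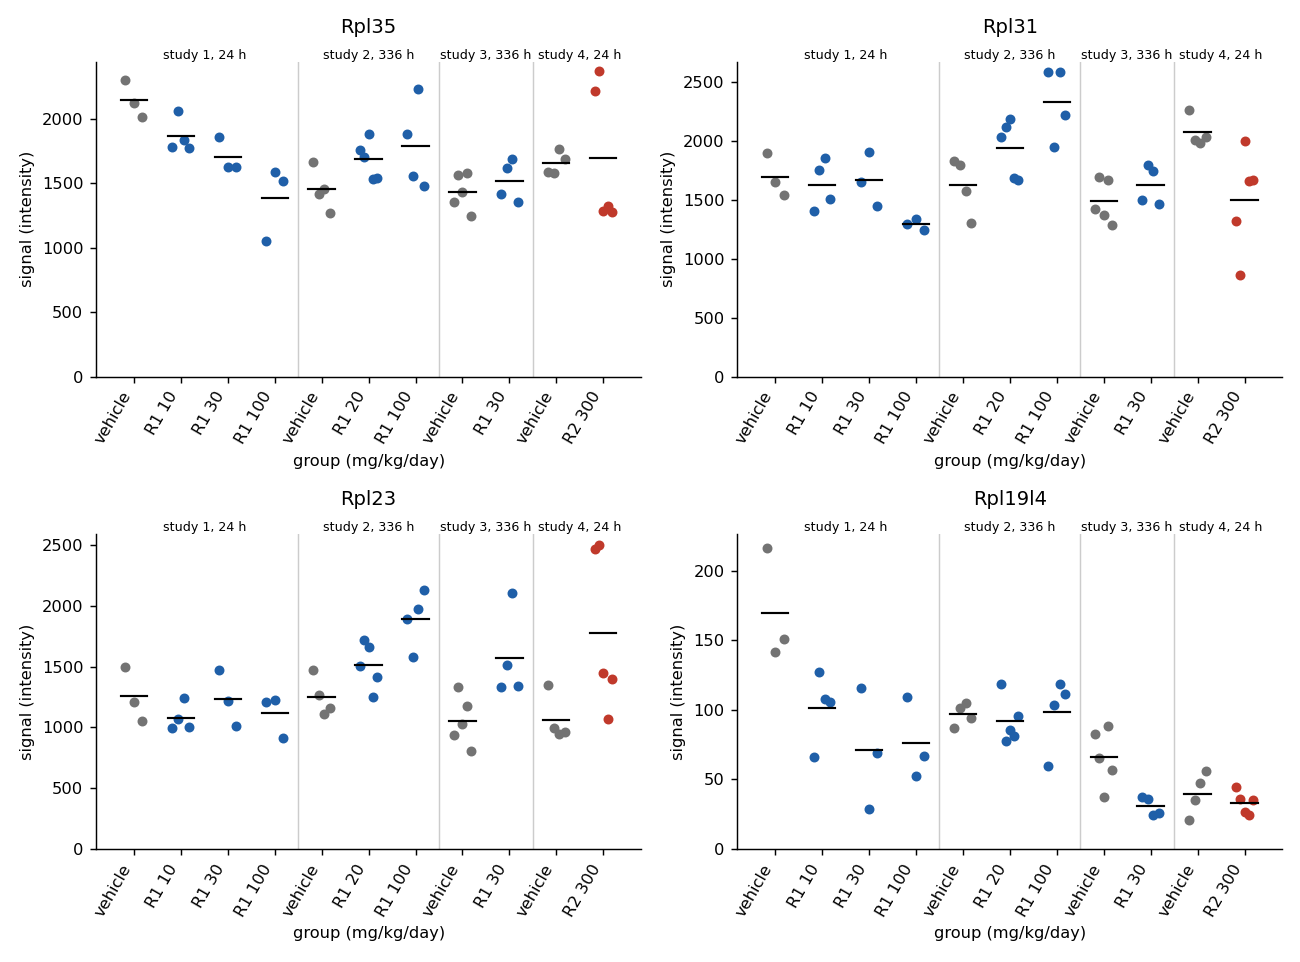
Deposited signal on each array (points) with group means (black bars) for probe sets of Rpl35 (M34331_g_at), Rpl31, Rpl23 (X58200mRNA_g_at) and Rpl19l4 in all 11 groups; doses are in mg/kg/day. Rpl35 falls below vehicle at 100 mg/kg/day in study 1, Rpl31 and Rpl23 lie above vehicle at 100 mg/kg/day in study 2, and Rpl19l4 also differs between vehicle groups.

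At 100 mg/kg/day of R1 most members lay on opposite sides of 0 at the 2 times. Studies 1 and 2 share no arrays, and 37 of 61 members (60.7%) were below 0 at 24 h and above 0 at 336 h, against 23.4% of all tested probe sets. The opposite pattern was seen in 2 members (3.28%), against 21.8%. These joint counts follow largely from the 77% of members below 0 at 24 h and the 80.3% above 0 at 336 h. They are not a further observation, and members on the same arrays are not replicates. The difference between the effects, 336 h minus 24 h, had a median of 0.40 over members and 0.00 over all tested, and 55 of 61 members were above 0. In the test of this difference 3 members were called, where 5.3% of all tested probe sets were. They were Rpl35 on both probe sets (0.94 ± 0.25, adjusted p = 0.0145, and 0.86 ± 0.26, adjusted p = 0.0421) and Rpl31 (0.91 ± 0.25, adjusted p = 0.0207). Time was confounded with study, so a time difference and a study difference cannot be told apart.

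The call of Rpl35 on M34331_g_at ended without vehicle array 1 or R1 array 1 of study 1 (adjusted p up to 0.097). That of Rpl31 ended without vehicle array 1 of study 1 or vehicle array 4 of study 2 (adjusted p up to 0.0807). On M34331_at, Rpl35 lost its call in 10 of the 14 fits that left out 1 array: each vehicle array or R1 array 1 of study 1, and vehicle arrays 2, 3 and 4 or R1 arrays 1, 2 and 3 of study 2 (adjusted p up to 0.23). Without vehicle array 1 of study 1, none of the 3 was called.

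At 30 mg/kg/day of R1, 24 of 61 members (39.3%) were below 0 at 24 h and above 0 at 336 h, against 21.7% of all tested. This count too follows largely from the 67.2% below 0 at 24 h and the 63.9% above 0 at 336 h. The difference between the times called 1 member, where 0.959% of all tested probe sets were called, and the median was 0.22. This was Rpl7a, a large subunit protein (1.03 ± 0.27, adjusted p = 0.0485). Its signal was 1655, 1907 and 1427 with vehicle and 1268, 631 and 1244 with R1 at 24 h. At 336 h it was 1496, 1263, 1166, 1406 and 1088 with vehicle and 1617, 1501, 1848 and 1385 with R1. R1 array 2 of study 1 was the lowest of these, and without it the call was lost. So it was without vehicle array 1 or 2 of study 1, R1 array 1, 2 or 3 of study 3, or vehicle array 2, 3 or 5 of study 3 (adjusted p up to 0.288).

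**Figure D3:**
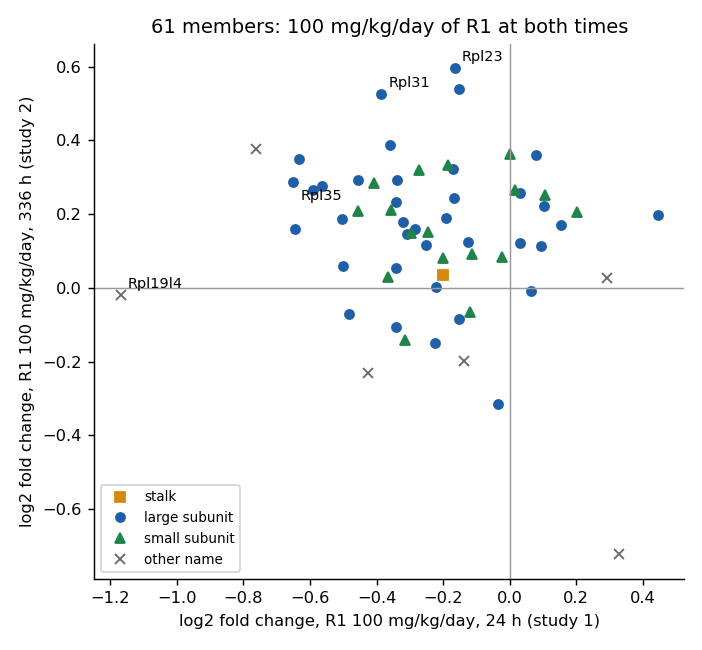
Each point is 1 of the 61 tested members, placed by its log2 fold change at 100 mg/kg/day of R1 against vehicle after 24 h (study 1, horizontal) and after 336 h (study 2, vertical); symbols mark the subunit. Of the 61, 37 lie at the upper left, below 0 at 24 h and above 0 at 336 h.

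With R2 at 300 mg/kg/day for 24 h, 10 of 61 members were called (16.4%), near the 15.3% of all tested probe sets. They divided evenly, 5 higher and 5 lower, and the member median was 0.00 against -0.05 for all tested. None of the 10 was called without R2 arrays 1 and 2. That fit had fewer R2 arrays and called 662 of all 6361 tested probe sets, against 974 with all arrays. Arrays 1 and 2 correlated with each other at 0.953 and with arrays 3 to 5 at 0.924 to 0.944, while arrays 3 to 5 correlated with each other at 0.956 to 0.972. Both lay beyond arrays 3 to 5 on the same side in 40 of 61 members (65.6%), against 41.1% of all tested probe sets. The same held for 10 of the 10 called. Those 10 were called on these same arrays, so their share is partly built in. It has no counterpart here over all called probe sets. The GAPDH 3′ to 5′ log2 ratios of arrays 1 and 2 were 0.90 and 1.01, against -0.06 to 0.27 in arrays 3 to 5. Their beta-actin ratios (1.02 and 1.02) lay within those of arrays 3 to 5 (0.80 to 1.49). So did their hexokinase ratios (0.25 and 1.45, within -0.64 to 2.06). The bile duct score was 4.63 to 5.39 with vehicle and 5.39 to 6.23 with R2, with 4 of 4 genes above 0 and 2 called higher. The stellate cell and fibroblast score was 6.50 to 7.36 and 5.39 to 6.60, with 1 of 5 genes called lower. The part of these in the members' values and in those of the gene lists below was not tested.

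Rps15, a small subunit protein near the decoding site, had signals of 185, 215, 235 and 189 with vehicle on its probe set rc_AA892895_i_at. With R2 it had 854 and 892 on arrays 1 and 2, and 210, 234 and 234 on arrays 3 to 5. The last 3 lay within the vehicle range, and the change of 0.91 ± 0.32 (adjusted p = 0.0414) became 0.14 (adjusted p = 0.854) without arrays 1 and 2. Rpl3, which lines the peptide-forming centre, had 1753, 1356, 1163 and 1316 with vehicle on its probe set rc_AA892367_i_at. It had 3934 and 4045 on R2 arrays 1 and 2, and 2067, 1199 and 1437 on the others. Its change of 0.70 ± 0.23 (adjusted p = 0.0298) became 0.14 (adjusted p = 0.765), and its other probe set had -0.02 ± 0.15 (adjusted p = 0.965).

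Rpl6, a large subunit protein, had 886, 653, 616 and 626 with vehicle on rc_AA799672_s_at, and 1676 and 1808 on R2 arrays 1 and 2 followed by 1103, 765 and 839. Its change of 0.76 ± 0.19 (adjusted p = 0.0031) was the one R2 call kept without each single array (adjusted p up to 0.0216), yet it became 0.37 (adjusted p = 0.197) without both arrays. Rpl13a (rc_AI012805_at) had 543, 807, 749 and 751 with vehicle, and 1775 and 1826, then 830, 818 and 786 with R2. Arrays 3 to 5 were close to the vehicle arrays, and 0.66 ± 0.19 (adjusted p = 0.0101) became 0.20 (adjusted p = 0.512). Rpl23 (X58200mRNA_g_at) had 1351, 998, 946 and 962 with vehicle, and 2468, 2505, 1452, 1069 and 1402 with R2. Its change was 0.67 ± 0.19 (adjusted p = 0.00989), and 0.30 (adjusted p = 0.367) without arrays 1 and 2.

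The lower members showed the same split. Rpl21 (M27905_at) had 1016, 652, 701 and 601 with vehicle, and 311 and 218, then 637, 623 and 591 with R2. Its change of -0.73 ± 0.21 (adjusted p = 0.0129) became -0.23 (adjusted p = 0.512). Rpl11, a large subunit protein that binds the p53 regulator Mdm2, had 1723, 1650, 1507 and 1296 with vehicle on X62146cds_at, and 604 and 683, then 1001, 1329 and 1527 with R2. The change of -0.67 ± 0.19 (adjusted p = 0.0117) became -0.28 (adjusted p = 0.415). Rpl31 had 2264, 2009, 1984 and 2037 with vehicle and 1324, 865, 2001, 1659 and 1666 with R2 (-0.52 ± 0.16, adjusted p = 0.0179), and -0.23 (adjusted p = 0.399) without arrays 1 and 2.

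Rps27l had 744, 688, 667 and 619 with vehicle, and 380, 290, 567, 584 and 643 with R2 (-0.52 ± 0.18, adjusted p = 0.037), and -0.18 (adjusted p = 0.621) without arrays 1 and 2. Rps29, a small zinc-binding protein of the small subunit, changed least when these arrays were left out. On X59051cds_s_at it had 5309, 3902, 4561 and 3695 with vehicle, and 2884, 3008, 3435, 3240 and 3115 with R2. All R2 arrays lay below all vehicle arrays, at -0.47 ± 0.12 (adjusted p = 0.00583), and at -0.41 (adjusted p = 0.0519) without arrays 1 and 2.

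Without R2 arrays 1 and 2 a single member was called, and it was none of the 10: Rpl27a, a large subunit protein, at -0.54 ± 0.18 (adjusted p = 0.0429). Of all 6361 tested probe sets, 662 were called in that fit, against 974 with all arrays. Single arrays also ended calls. R2 array 1 or 2 ended Rpl21, Rpl3, Rps15, Rpl13a, Rpl23, Rps27l and Rpl11, and R2 array 2 also ended Rpl31. Vehicle array 1 ended Rpl21, Rpl31, Rps15, Rpl13a, Rps29 and Rps27l. Vehicle arrays 2 and 3 ended Rpl3, Rps15 and Rps27l, and vehicle array 4 Rpl3 and Rps15. The highest adjusted p in these fits was 0.208, for Rps15. All 10 calls also ended with study 4 fitted alone.

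**Figure D4:**
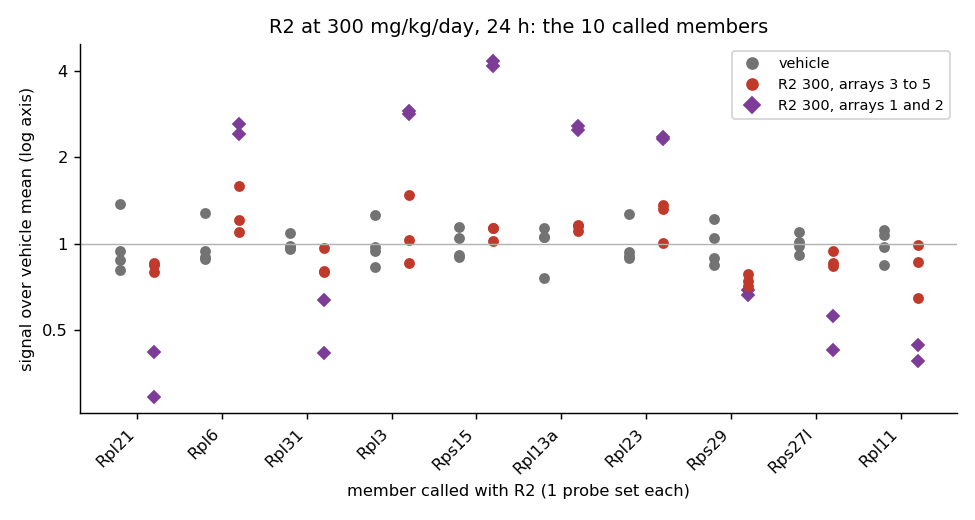
Signal of each study 4 array divided by the vehicle mean, on a log axis, for the 10 probe sets called with 300 mg/kg/day of R2; gray is vehicle, red R2 arrays 3 to 5 and purple diamonds R2 arrays 1 and 2. The diamonds lie beyond the red points in all 10, and for Rps15 they are the only R2 arrays away from vehicle.

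Several well-known members passed no test against vehicle. Rplp0, the stalk protein that recruits elongation factors, had changes between -0.37 ± 0.21 (R1 30 at 24 h) and 0.07 ± 0.17 (R1 30 at 336 h). Its signal overlapped between vehicle and dose in study 2, at 2552, 2372, 2790 and 2505 with vehicle and 1968, 2277, 3240 and 3212 at 100 mg/kg/day. Rps6, the substrate of the S6 kinases, had -0.27 ± 0.19 (adjusted p = 0.511) at 24 h and 0.32 ± 0.16 (adjusted p = 0.251) at 336 h with 100 mg/kg/day of R1 on M29358_g_at. Rpsa, also known as the laminin receptor, had -0.25 ± 0.16 and 0.15 ± 0.14 on D25224_g_at (adjusted p = 0.48 and 0.625). Rps3, a small subunit protein also known in DNA repair, had -0.20 ± 0.19 and 0.08 ± 0.17 on X51536cds_g_at (adjusted p = 0.683 and 0.867). The other probe sets of these genes had -0.30 and 0.15 (Rps6), -0.41 and 0.29 (Rpsa), and -0.12 and -0.06 (Rps3). None of those was called, and the Rps3 probe sets differed in sign at 336 h.

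Probe sets of 1 gene often disagreed. Of the 16 genes with several tested probe sets, 8 had a call with R2 and none of these had all its probe sets called. The signs matched within 9 of the 16 genes with R2, 13 with 100 mg/kg/day of R1 at 24 h and 10 at 336 h. All probe sets of a gene were called for Rpl35 in the difference between the times, and for Rpl27 between the vehicle groups of studies 3 and 2.

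**Figure D5:**
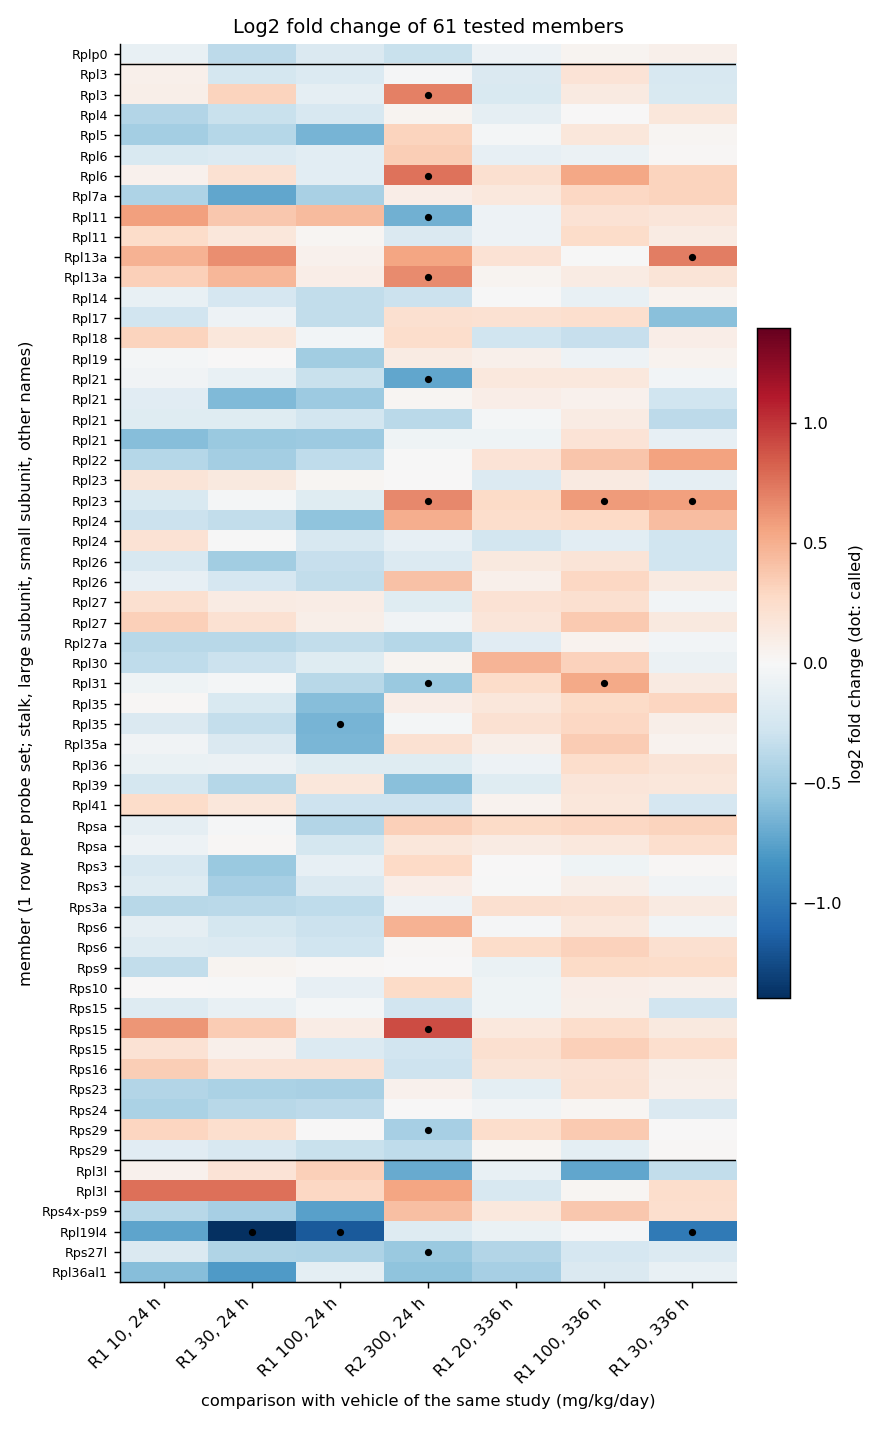
Colour gives the log2 fold change of each of the 61 tested members (rows, 1 per probe set) in the 7 comparisons with vehicle (columns, doses in mg/kg/day), and dots mark calls at an adjusted p under 0.05. The 24 h columns of R1 are mostly blue, the 100 mg/kg/day column at 336 h mostly red, and most dots are in the R2 column.

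Vehicle groups of different studies differed in their ribosomal proteins too. At 336 h, study 3 against study 2 called 17 of 61 members (27.9%), 4 higher and 13 lower, where 17.8% of all tested probe sets were called. The median was -0.18 against 0.02. Lower in study 3 were Rpl14 (-0.83 ± 0.17, adjusted p = 0.000324), Rps10 (-0.82 ± 0.15, adjusted p = 0.000106), Rpl23 on X58200mRNA_at (-0.76 ± 0.14, adjusted p = 0.000127) and Rps6 on M29358_g_at (-0.71 ± 0.15, adjusted p = 0.000701). These 4 held without each single array. Higher were Rps15 (rc_AA892895_i_at, 0.87 ± 0.32), Rpl3 (rc_AA892367_i_at, 0.69 ± 0.23), Rps24 (0.69 ± 0.19) and Rps29 (0.41 ± 0.12). Those of Rps24 and Rps29 held without each single array. That of Rpl3 ended without vehicle array 2 or 3 of study 2 or 4 of study 3 (adjusted p up to 0.0987). That of Rps15 ended in 7 of these fits (adjusted p up to 0.132): vehicle arrays 1, 3 and 4 of study 2 and 2 to 5 of study 3. At 24 h, study 4 against study 1 called 7 of 61, 3 higher and 4 lower, where 5.64% of all tested were, with a median of 0.02. The largest was that of the probe set annotated as Rpl19l4, the name of which is uncertain (-2.08 ± 0.33, adjusted p = 3.44e-05). It held without each single array.

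Other genes of protein synthesis were counted from lists, 1 probe set per gene. Of 18 tested translation initiation factors, 6 were called with R2 at 300 mg/kg/day, all higher, where 15.3% of all tested probe sets were called in either direction. The list median was 0.36, against -0.05 for all tested. Eif2b3, a subunit of a nucleotide exchange factor, rose by 1.10 ± 0.28 (adjusted p = 0.0037), and by 1.23 (adjusted p = 0.00667) without R2 arrays 1 and 2. Eif5, which helps select the start codon, rose by 0.94 ± 0.25 (adjusted p = 0.00591), and by 1.19 (adjusted p = 0.00213) without them. Both lost the call without vehicle array 1 (adjusted p = 0.0547 and 0.086), and Eif5 also with study 4 fitted alone. Eif4ebp1, which restrains cap-dependent initiation, had 1.21 ± 0.28 (adjusted p = 0.00158), and 0.83 (adjusted p = 0.0703) without the 2 arrays. Eif2s1, Eif3m and Eif5b were not called without them either (adjusted p = 0.113, 0.194 and 0.217). At 30 mg/kg/day of R1 for 336 h, 2 of the 18 were called, where 11.3% of all tested probe sets were: Eif4ebp1 (0.99 ± 0.28, adjusted p = 0.0142) and Eif2s1 (0.45 ± 0.15, adjusted p = 0.0376). The Eif4ebp1 call ended without R1 array 1 or 3 or vehicle array 4 (adjusted p up to 0.0766). The Eif2s1 call ended without any 1 of 7 of the 9 arrays, R1 array 1 and vehicle array 5 excepted (adjusted p up to 0.141), and with study 3 fitted alone. Both were lower in the vehicle group of study 3 than in that of study 2 (-1.54, adjusted p = 7.08e-05, and -0.52, adjusted p = 0.00892).

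Of 13 tested ribosome biogenesis genes, 3 were called with R2, all higher, beside the same 15.3% of all tested. The list median was 0.61, against -0.05. Gnl3, a nucleolar GTP-binding protein, rose by 0.88 ± 0.24 (adjusted p = 0.00692), and by 1.08 (adjusted p = 0.00401) without R2 arrays 1 and 2. Ddx21, a nucleolar RNA helicase, rose by 0.84 ± 0.23 (adjusted p = 0.00753), and by 0.76 (adjusted p = 0.0375) without them. Both calls held without each single array, and that of Ddx21 ended with study 4 fitted alone (adjusted p = 0.0691). Dkc1, the pseudouridine synthase of small nucleolar particles, had 0.66 ± 0.23 (adjusted p = 0.0394), and 0.33 (adjusted p = 0.442) without the 2 arrays. Of 4 tested aminoacyl-tRNA synthetases, Farsa had 0.78 ± 0.25 (adjusted p = 0.0289), and 0.35 (adjusted p = 0.501) without them. Of 9 genes of S6 kinase and mTOR signalling, Tsc2, an inhibitor of mTOR, had -0.69 ± 0.24 (adjusted p = 0.0449), and -0.35 (adjusted p = 0.47) without them.

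With R1 at 100 mg/kg/day for 24 h, medians were 0.28 for the initiation factors and 0.25 for the biogenesis genes. The ribosomal protein median was -0.22 and that of all tested -0.04. Of the 18 initiation factors 0 were called at 24 h, where 6.4% of all tested probe sets were. At 336 h the medians of the 2 lists were -0.21 and 0.02, against 0.17 for the ribosomal proteins and -0.02 for all tested. Of the 18 initiation factors 1 was called there, where 10.3% of all tested probe sets were. This was Eif4a2, an RNA helicase, which was lower (-0.55 ± 0.18, adjusted p = 0.035). That call ended without vehicle array 2, 3 or 4 or R1 array 1 or 3 (adjusted p up to 0.262), and with study 2 fitted alone (adjusted p = 0.107). Of the 13 biogenesis genes 1 was called at 24 h, where 6.4% of all tested probe sets were. This was Ddx21 (0.99 ± 0.28, adjusted p = 0.0187), but not without vehicle array 1 or 2 or R1 array 1 or 2 (adjusted p up to 0.117). The Ddx21 call also ended with study 1 fitted alone (adjusted p = 0.0506). Of 6 tested elongation factors and other TOP messengers, 1 was called at 100 mg/kg/day for 24 h, beside the same 6.4%. This was Nap1l1, a histone chaperone, which rose by 1.60 ± 0.39 (adjusted p = 0.00538). That call ended without vehicle array 3 (adjusted p = 0.0611). At 30 mg/kg/day for 336 h Nap1l1 rose by 2.19 ± 0.32 (adjusted p = 1.65e-06), in every fit run. It was the 1 call among the 6 there, where 11.3% of all tested probe sets were called. Its signal there was 5.37 to 19.6 with vehicle and 52.3 to 83.8 with R1, while the study 2 vehicle arrays had 35.8 to 43.8. The study 3 vehicle group lay below that of study 2 by a change of -1.50 ± 0.32 (adjusted p = 0.000492). Eef1a1, which delivers aminoacyl-tRNA, and Eef2, which drives translocation, passed no test against vehicle.

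The 14 mitochondrial ribosomal proteins, which build a separate ribosome, had medians of -0.28 at 100 mg/kg/day of R1 for 24 h and 0.11 for 336 h. Of the 14, 1 was called at 24 h, where 6.4% of all tested probe sets were. This was Mrpl52, which fell (-1.22 ± 0.31, adjusted p = 0.00981), except without vehicle array 2 or R1 array 2 (adjusted p up to 0.111). With 30 mg/kg/day for 336 h, 2 of the 14 were called, where 11.3% of all tested probe sets were. Mrpl38 had 0.64 ± 0.22 (adjusted p = 0.0476) and Mrps6 0.66 ± 0.22 (adjusted p = 0.044). The first ended without any 1 of 8 of the 9 arrays (adjusted p up to 0.141), the exception being vehicle array 1. It also ended with the larger offset (percentile 40), with no filter and with no trend (adjusted p up to 0.0612). Mrpl38 was also lower in the study 3 vehicle group than in that of study 2 (-0.89 ± 0.22, adjusted p = 0.00274). The Mrps6 call ended without R1 array 1, 3 or 4 or vehicle array 3, 4 or 5 (adjusted p up to 0.165). It also ended with no filter, with study 3 fitted alone and with a replicate block (adjusted p up to 0.156). With R2, Mrpl38 was the 1 call among the 14, where 15.3% of all tested probe sets were called. Its change was 0.65 ± 0.22 (adjusted p = 0.0345), and 0.31 (adjusted p = 0.488) without R2 arrays 1 and 2. Rack1, a scaffold on the small subunit, passed no test against vehicle and had changes between -0.50 ± 0.23 and 0.15 ± 0.20.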

How the data were processed

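Liver RNA of rats was measured in 44 samples on Affymetrix rat arrays. Per the labels, biotinylated cRNA was made from 2 ug of total RNA, and the submitters' processing notes name MAS5, with no version. The deposited intensity values had the same sorted values on all 44 arrays, so they are quantile normalized, a step not given in the sources used here. Gene names came from a table of the platform: 7006 probe sets had 1 symbol, 308 several and 1426 none. The 59 control probe sets were left out.

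The log2 scale was log2(intensity + 2.888), the offset being percentile 20 over the arrays. Probe sets whose highest group mean reached 9.17 (percentile 40) were tested, 6361 in all. limma 3.58.1 in R 4.3.3 fitted 1 mean for each of 11 groups over all arrays (33 residual degrees of freedom, mean-variance trend, 2-sided), with Benjamini-Hochberg adjustment within each of 13 comparisons over all tested probe sets. Tables and plots used Python 3.11.15, numpy 2.4.6, pandas 2.3.3 and matplotlib 3.10.9. The fit was tested on simulated data. The number of arrays limits the precision.

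The members and lists were chosen with earlier results of these data known. The rule for named members took, per comparison with vehicle, up to 8 called probe sets by size (or the 3 smallest p where none was called), members called in several such comparisons, Rplp0, Rplp1, Rplp2, Rpsa, Rps6, Rpl3, Rps3, paralogs, the extremes of level and spread, and genes whose probe sets differed in call or sign; listed genes were named up to 4 per list and comparison. The text gives a part of these. Beyond the rule, the other called members with R2, Eif2s1, Eif5b, Rpl27a, Rack1, Eef1a1 and Eef2, and members named between vehicle groups or between times, were chosen after their values were seen. Alternatives were other offsets and filters, centring, each study fitted alone, no trend, 1 probe set per gene, array weights, a replicate block and each array left out. Leaving out R2 arrays 1 and 2 together was added after seeing the data.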

Additional observations from a re-analysis of the deposited data

Results flagged for a closer look

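In 3 of 112 sets of values tested, where chance gives about 1 in 20, 1 array stood far from the others of its group. Vehicle array 1 of study 4 had 1351 for Rpl23 (X58200mRNA_g_at), against 946 to 998 in the other 3 arrays. The same array had 886 for Rpl6 (rc_AA799672_s_at), against 616 to 653. In study 2, array 3 of the R1 group given 20 mg/kg/day had 1187 for Rpl3 (rc_AA892367_i_at), against 723 to 856.

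The effect of R1 differed between 336 h and 24 h, by limma's test of the difference, in 4 probe sets. At 100 mg/kg/day it was higher at 336 h by 0.94 and 0.86 for the probe sets of Rpl35 and by 0.91 for Rpl31. At 30 mg/kg/day it was higher by 1.03 for Rpl7a. Time and study cannot be told apart in these.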

How the results depend on the processing

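No alternative reversed a called value. Medians near 0 did change sign without single arrays, from -0.01 to 0.07 at R1 20 for 336 h and -0.04 to 0.03 with R2. They fell below 0 without vehicle array 4 of study 2 in the first, and without vehicle array 1 or R2 array 1 or 2 in the second. In all, 12 of 46 member calls over the 13 comparisons were kept in every fit run. Of the 18 calls in comparisons with vehicle, none was kept in all fits. Leaving out 1 array at a time gave 0 to 3 called members at R1 30 for 24 h, with medians of -0.16 to -0.10, 0 to 2 at R1 100 for 24 h, 0 to 4 at R1 100 for 336 h, 0 to 3 at R1 30 for 336 h and 2 to 13 with R2. It gave 0 to 1 in both comparisons of doses, 0 to 5 for the R1 100 difference between times and 0 to 1 for that of R1 30, 10 to 16 between the vehicles of studies 3 and 2, and 3 to 6 between those of studies 4 and 1.

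With each study fitted alone, 0 members were called at R1 30 for 24 h, 1 at R1 100 for 24 h and 0 with R2. Of all 6361 tested, 120, 430 and 679 were called in these fits, against 110, 407 and 974 in the main fit. A stricter filter (percentile 60) called 2 at R1 30 for 24 h and 1 for R1 100 against 10. Of all 4275 probe sets tested with it, 127 and 294 were called. With no filter, 1 was called at R1 100 for 336 h and 0 for the R1 30 difference between times, and with no trend both were 0. All tested had 612 and 50 calls of 8740 with no filter, and 641 and 45 of 6361 with no trend. The R1 30 difference also had 0 members called with the smaller offset (percentile 5) and with arrays centred on other probe sets. All tested had 57 and 60 calls in these. Using 1 probe set per gene called 1 at R1 100 for 336 h, 11 between the vehicles of studies 3 and 2 and 1 between those of studies 4 and 1. Of all 4837 tested so, 451, 842 and 242 were called. Array weights called 4 at R1 100 for 24 h, 4 at R1 100 for 336 h, 3 with R2 and 6 for the R1 100 difference between times. At R1 100 for 24 h they called 633 of all tested, against 407 in the main fit. Member counts thus moved along with the counts over all tested. R2 without arrays 1 and 2, chosen after seeing the data, called 1 member, with 662 of all probe sets against 974. The causes were not tested.

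Within studies, same-numbered pairs of arrays had a median correlation of deviations of 0.04, and 4 of 38 exceeded 0.1. Pairs with different numbers had a median of -0.02, and 7 of 121 exceeded 0.1. Same-numbered pairs had the higher median in studies 1 and 2 but not in studies 3 and 4. Whether replicate numbers pair the arrays was not settled. With the replicate number as a block, 0 members were called at R1 30 for 24 h, 1 at R1 100 for 24 h and 12 with R2. Signal over background limits the dim members, such as both probe sets of Rpl3l.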
